A study of Mus musculus with 20 samples.

Results

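The 10 genes described here are known targets of p53, followed through sorted mouse crypt cells and through intestinal organoids: *Phlda3*, *Cdkn1a*, *Mdm2*, *Ccng1*, *Eda2r*, *Plk2*, *Zmat3*, *Sesn2*, *Trp53inp1* and *Bbc3*. They were chosen by name as p53 targets, with earlier results of these data known. Counts of members beside all genes therefore describe the list and are no independent support. All 10 were found among the 54838 gene identifiers of the files. RNA sequencing was done on 20 libraries, all from the C57BL/6 strain. The 12 tissue libraries held cells digested from intestinal crypts and sorted by the brightness of an EGFP reporter of Lgr5, a gene of crypt stem cells. Cells labelled *Mettl3*-/- (KO below) had 2 libraries in each of the Lgr5-high and Lgr5-low gates at day 4, 1 library per gate at day 3, and 2 libraries at day 6 for which the labels name no gate. Cells labelled wild type (WT) had 2 libraries per gate. Per the labels' protocols the KO mice carried Mettl3fl/fl with Lgr5-EGFP-IRES-CreERT2 and Villin-CreERT2, a Cre driven in stem cells joined with a Cre driven across the intestinal epithelium, and were given tamoxifen (20 mg/ml, 4 days). For WT tissue the treatment label reads untreated, although the protocols describe tamoxifen for Mettl3fl/fl mice named with no Cre too. The start of the day count is not given. The 8 organoid libraries came from cultures of the mice with both Cre alleles, sorted for living cells, with 2 libraries per group. These were KO with AKFP (retroviral *Ascl2*, *Klf9*, *Fosb* and *Purb*), KO with AKF (the first 3 factors) and KO with no factor, each on 4-OHT for 2 days, and WT on ethanol for 2 days. The protocols describe puromycin selection after infection and do not say whether the KO and WT cultures had it. The titles of the KO and WT organoids hold "m3-flag", which is not explained. METTL3 is the enzyme that writes m6A marks on RNA. Nothing in the labels ties a library to an animal or a culture of its own, so the p-values speak only of the spread among libraries, which may be technical.

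p53 is a transcription factor that is kept scarce by the ubiquitin ligase MDM2 and is stabilised by DNA damage, ribosome stress and other insults. It binds paired copies of a short half-site in the DNA near its targets and raises their transcription. Its targets stop the cell cycle, promote death, restrain growth signals or, in the case of *Mdm2*, feed back on p53 itself. In intestinal crypts p53 is best known for the response of stem and progenitor cells to irradiation.

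Values are FPKM, a read level adjusted for transcript length and for the depth of each library, so levels of different genes can be compared per length. *Epcam*, an epithelial surface protein, was between 352.5 and 563 FPKM in all 20 libraries. Immune markers summed to at most 28.4 FPKM over 12 genes in KO tissue and to at most 19.1 in WT tissue. In day 4 KO Lgr5-low cells, which had the highest sum, 1 of the 12, *Adgre1*, was under 0.1 FPKM. Depth, estimated from the steps between low values, came to between 14.9 and 25.5 M fragments per library (M, mega). The first KO Lgr5-high library of day 4 and the first of day 6 stood apart: in these 2 the genes with transcripts over 5000 bases were lower than in WT by medians of -0.62 and -0.52 (log2), against -0.14 to 0.20 in the others. *Zmat3* and *Trp53inp1* have transcripts of 7797 and 5432 bases. *Mettl3* itself does not check the labels in tissue or in organoids, because a value per gene can miss the deletion of an exon. It was between 2.75 and 4.99 FPKM in the KO tissue libraries and between 3.42 and 4.86 in the WT ones. In organoids with no added factor it was 3.62 and 3.47 FPKM in KO, against 3.23 and 3.56 in WT. Strand is not stated for the kit or the counting, so the value of *Cdkn1a*, which overlaps the antisense gene *AC167363.2*, may include reads of its partner. *Sesn2* overlaps *Gm12981* on its own strand.

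The DNA upstream of the start of transcription was searched for the p53 half-site, a pattern of 10 bases that reads the same on both strands. The windows shown are those of members that hold a match, each the 250 bases before a RefSeq start (GRCm38.p6), written 5′ to 3′ on the strand of the gene, with half-sites in capitals.
Cdkn1a: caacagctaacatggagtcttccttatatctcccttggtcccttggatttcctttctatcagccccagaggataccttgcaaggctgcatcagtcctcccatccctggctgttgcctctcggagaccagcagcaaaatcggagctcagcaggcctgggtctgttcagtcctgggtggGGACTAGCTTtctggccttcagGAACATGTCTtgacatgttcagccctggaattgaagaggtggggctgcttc
Mdm2: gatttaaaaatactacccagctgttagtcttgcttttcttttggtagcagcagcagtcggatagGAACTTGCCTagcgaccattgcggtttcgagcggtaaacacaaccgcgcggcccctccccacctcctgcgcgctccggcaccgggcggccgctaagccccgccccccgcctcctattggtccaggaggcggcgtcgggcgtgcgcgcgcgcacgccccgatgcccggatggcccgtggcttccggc
Ccng1: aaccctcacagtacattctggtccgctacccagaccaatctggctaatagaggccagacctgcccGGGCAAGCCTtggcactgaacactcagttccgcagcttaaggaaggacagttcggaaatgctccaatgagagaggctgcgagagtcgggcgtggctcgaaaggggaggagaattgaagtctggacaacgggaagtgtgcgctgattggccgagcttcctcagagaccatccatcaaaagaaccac
The *Cdkn1a* window lies at chr17:29090729-29090978 on the plus strand, the *Mdm2* window at chr10:117710759-117711008 on the minus strand and the *Ccng1* window at chr11:40755287-40755536 on the minus strand. By symbol 8 members matched a RefSeq entry, with 11 windows in all, and *Zmat3* and *Trp53inp1* did not. The *Cdkn1a* window shown held a pair of half-sites, at positions -73 and -51 from its start of transcription. Another *Cdkn1a* window, at chr17:29093519-29093768, held 0. *Mdm2* held 1 half-site at position -186, and *Ccng1* held 1 at position -185. A half-site stood in 7.13% of all 32851 windows of this length, and a pair with at most 13 bases between its copies stood in 0.0639%. These matches describe letters in a window and say nothing of p53 binding.

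In WT crypts the members spanned a wide range of levels. *Ccng1*, which encodes cyclin G1, a regulator in the p53 feedback loop, and *Cdkn1a*, which encodes the cyclin-dependent kinase inhibitor p21, were the highest, and *Eda2r*, the receptor for the ectodysplasin isoform EDA-A2, was the lowest. By the mean of 2 Lgr5-high libraries the order ran from *Ccng1* (20.98 ± 5.56 FPKM, SD, n = 2) through *Cdkn1a* (10.4 ± 0.418), *Bbc3* (6.43 ± 0.145), *Mdm2* (5.88 ± 0.241), *Sesn2* (5.85 ± 0.295), *Trp53inp1* (4.17 ± 0.213), *Plk2* (2.02 ± 0.372), *Phlda3* (1.46 ± 0.225) and *Zmat3* (0.964 ± 0.110) to *Eda2r* (0.465 ± 0.254). *Mdm2* and *Sesn2* did not differ beyond their spread, and the libraries of other neighbours in this order did not overlap. The gates also differed. *Cdkn1a* was the single member whose Lgr5-low libraries both stood above the Lgr5-high ones, where 24.1% of genes did so. For 7 members (*Phlda3*, *Mdm2*, *Eda2r*, *Plk2*, *Sesn2*, *Trp53inp1* and *Bbc3*) both Lgr5-low libraries stood below, against 40% of genes. These are descriptions of 2 libraries per gate, with no test.

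Across the days, the growth and survival arm of the list was led by *Phlda3* (chromosome 1, 135766119 to 135769136, mm10), a small protein that competes with the kinase Akt for membrane lipids and so restrains Akt signalling. In the Lgr5-high gate it stood at 1.305 and 1.62 FPKM in WT, 10.6 at day 3, and 19.7 and 15.1 at day 4. In the Lgr5-low gate it stood at 0.685 and 0.447 FPKM in WT, 7.35 at day 3, and 15.0 and 11.2 at day 4, and it reached 39.6 and 33.0 FPKM at day 6. Every KO library thus lay above every WT library, and each day lay above the one before it in both gates. *Sesn2* (chromosome 4, 132492032 to 132510501), which encodes Sestrin 2, a leucine sensor that inhibits mTORC1, moved less. It stood at 6.06 and 5.64 FPKM in WT, 7.46 at day 3, and 7.23 and 9.50 at day 4 in Lgr5-high cells. In Lgr5-low cells it stood at 4.54 and 3.73 FPKM in WT, 5.52 at day 3, and 7.63 and 6.67 at day 4, and day 6 gave 10.4 and 12.98 FPKM. KO libraries lay above the WT libraries of their own gate, while the Lgr5-low library of day 3 lay below both WT Lgr5-high libraries.

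Of the members that act on the cell cycle, *Cdkn1a* (chromosome 17, 29090976 to 29100727) climbed with the days and kept its gate difference. Lgr5-high cells had 10.1 and 10.7 FPKM in WT, 17.0 at day 3, and 23.6 and 40.1 at day 4. Lgr5-low cells had 25.9 and 28.3 FPKM in WT, 34.6 at day 3, and 54.5 and 79.9 at day 4, and day 6 had 99.7 and 85.5 FPKM. The day 3 Lgr5-high library and the first day 4 one were below both WT Lgr5-low libraries. *Ccng1* (chromosome 11, 40748552 to 40755311) stood between the day 4 libraries at day 3 in the Lgr5-high gate. It stood at 17.1 and 24.9 FPKM in WT, 36.1 at day 3, and 30.8 and 49.1 at day 4 in Lgr5-high cells. In Lgr5-low cells it stood at 16.6 and 20.8 FPKM in WT, 38.0 at day 3, and 45.4 and 48.0 at day 4, with 46.3 and 66.3 FPKM at day 6. All KO libraries lay above all WT libraries, but day 6 overlapped day 4. *Plk2* (chromosome 13, 110395046 to 110400844), a polo-like kinase of the centriole cycle, was at 1.76 and 2.28 FPKM in WT Lgr5-high cells, 5.11 at day 3, and 2.35 and 4.25 at day 4. In Lgr5-low cells it was at 1.27 and 1.43 FPKM in WT, 3.13 at day 3, and 4.03 and 3.09 at day 4, before 8.58 and 7.85 FPKM at day 6. In the Lgr5-high gate day 3 was thus above day 4, and day 6 was above all other tissue libraries.

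*Mdm2* (chromosome 10, 117688875 to 117710758), the feedback ligase, moved in narrow steps. Lgr5-high cells had 5.71 and 6.05 FPKM in WT, 7.78 at day 3, and 7.88 and 9.36 at day 4, and Lgr5-low cells had 5.36 and 5.45 in WT, 7.71 at day 3, and 8.85 and 9.67 at day 4. Day 6 had 13.3 and 15.2 FPKM, and no KO library overlapped a WT one. *Zmat3* (chromosome 3, 32334792 to 32366014), an RNA-binding zinc finger protein that regulates splicing and mRNA stability, was at 0.887 and 1.04 FPKM in WT, 2.34 at day 3, and 2.00 and 3.83 at day 4 in Lgr5-high cells. In Lgr5-low cells it was at 0.811 and 1.15 FPKM in WT, 2.17 at day 3, and 3.79 and 3.23 at day 4, with 3.30 and 6.37 at day 6. Every KO library was above every WT library.

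The members tied to cell death behaved unlike each other. *Eda2r* (chromosome X, 97333840 to 97377216) was at 0.285 and 0.645 FPKM in WT Lgr5-high cells, 2.09 at day 3, and 1.06 and 2.01 at day 4. In Lgr5-low cells it was at 0.0981 and 0.150 FPKM in WT, 1.33 at day 3, and 1.63 and 1.21 at day 4, with 1.65 and 3.93 at day 6. All KO libraries lay above all WT libraries although the counts are small, with about 11 fragments behind the second WT Lgr5-low library. *Bbc3* (chromosome 7, 16308393 to 16318205), which encodes the BH3-only death protein PUMA, showed no steady order over the days. Lgr5-high cells had 6.33 and 6.53 FPKM in WT, 9.14 at day 3, and 11.6 and 6.69 at day 4. Lgr5-low cells had 4.35 and 4.55 FPKM in WT, 7.33 at day 3, and 6.84 and 3.54 at day 4, and day 6 had 7.85 and 6.39. KO and WT libraries overlapped in the Lgr5-low gate at day 4 and, for WT Lgr5-high, at day 6. *Trp53inp1* (chromosome 4, 11156431 to 11174379), a nuclear partner of p53 that also takes part in autophagy, was the other member without a clear split. It stood at 4.32 and 4.02 FPKM in WT Lgr5-high cells, 5.496 at day 3, and 2.55 and 6.04 at day 4. It stood at 2.51 and 2.76 FPKM in WT Lgr5-low cells, 5.32 at day 3, and 4.70 and 4.84 at day 4, with 3.78 and 7.54 at day 6. The low values of day 4 Lgr5-high and of day 6 are those of the 2 libraries that stand apart.

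**Figure D1:**
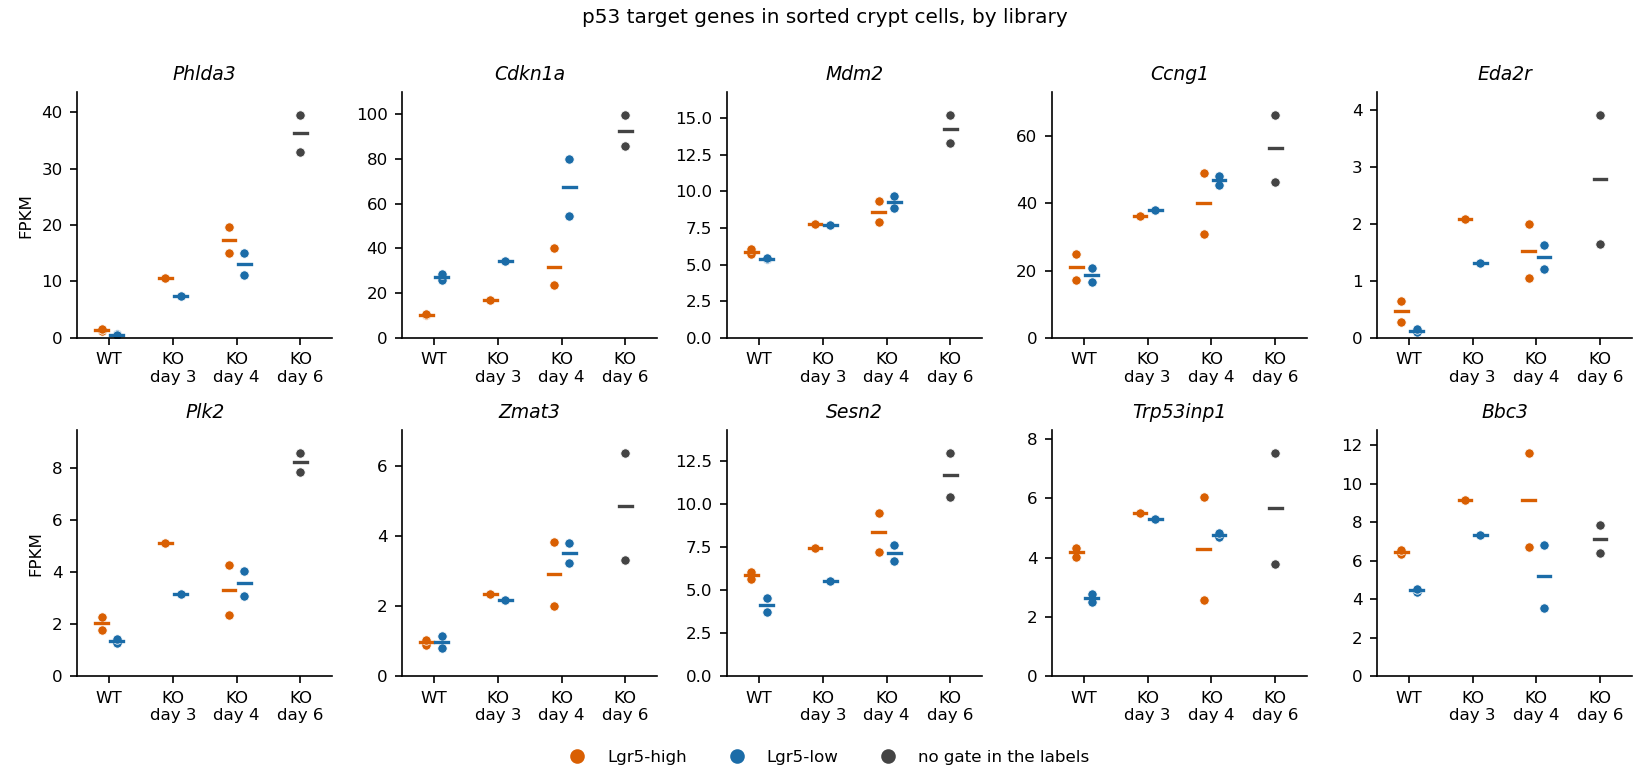
FPKM of each member in the 12 tissue libraries, with WT and KO at days 3, 4 and 6 along each horizontal axis. Points are libraries and bars group means, with Lgr5-high in orange, Lgr5-low in blue and day 6, without a gate, in dark grey; *Phlda3* climbs from at most 1.62 FPKM in WT to at least 33.0 at day 6, while *Bbc3* and *Trp53inp1* overlap.

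Over the list, 6 members (*Phlda3*, *Mdm2*, *Ccng1*, *Eda2r*, *Plk2* and *Zmat3*) had all 8 KO tissue libraries above all 4 WT tissue libraries. Of all genes that reached 1 FPKM in at least 2 of the 12 libraries, 3.89% did so. All 10 members passed that filter, but *Eda2r*, under 1 FPKM in all 4 WT libraries, passed only through the KO libraries where it is high, and so was bound to differ. Without it, and with the filter applied to the WT libraries alone, 5 of 9 members did so, against 3.55% of the 11977 genes left, a setting chosen after seeing the data. The tissue counts and medians over 10 members below include *Eda2r*, and the medians over the other 9 were 0.48 and 0.95 at day 4 in Lgr5-high and Lgr5-low cells and 1.45 at day 6. These values are per library of many cells, so more cells with the transcript and more transcript per cell cannot be told apart.

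The day 3 libraries ask how early the members moved, with 1 library per gate and therefore no test. All 10 members were above both WT libraries of the same gate, in Lgr5-high and in Lgr5-low cells. That was true of 43.7% and 42.2% of all genes, so this direction alone was common. Differences of 0.5 or more on the log2(FPKM + 1) scale were reached by 6 members in Lgr5-high cells, where 6.41% of genes reached it, and by 7 members in Lgr5-low cells, where 7.06% did. *Phlda3* differed by 2.24 and 2.42 in the 2 gates. The plain ratios of its FPKM to the WT mean, with no pseudocount, were 7.27 and 12.97, the second over a WT mean of 0.566 FPKM with about 10 fragments in 1 of its libraries. *Eda2r* differed by 1.09 and 1.05, *Plk2* by 1.02 and 0.82, *Ccng1* by 0.78 and 0.99, and *Zmat3* by 0.76 and 0.68, in Lgr5-high and Lgr5-low cells in turn. *Cdkn1a* reached 0.66 in Lgr5-high cells and 0.34 in Lgr5-low cells, *Trp53inp1* 0.33 and 0.80, and *Bbc3* 0.45 and 0.61. *Mdm2* (0.35 and 0.44) and *Sesn2* (0.31 and 0.35) stayed under 0.5 in both gates. In a limma fit of all 12 libraries, which assumes that the lone library varies like the other groups, 1 member was called higher in Lgr5-low cells, *Phlda3* (adjusted p = 0.0276), where 0.0461% of genes were. In Lgr5-high cells 0 members were called, where 0.0154% of genes were, and *Phlda3* had an adjusted p of 0.0557.

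At day 4, the first time with 2 libraries per gate, *Phlda3* rose in both gates and *Cdkn1a* rose in Lgr5-high cells. In Lgr5-high cells 2 of 10 members were called higher and 0 lower by limma at a Benjamini-Hochberg adjusted p under 0.05, against 0.729% of the 12899 genes tested that were called higher and 0.326% called lower. Both libraries of the KO group lay above both of WT for 9 members, all but *Trp53inp1*, against 24.8% of genes. *Phlda3* averaged 17.4 ± 3.29 FPKM in KO and 1.46 ± 0.225 FPKM in WT cells (SD, n = 2 each), a log2 change of 2.89 ± 0.23 (SE, adjusted p = 0.00221). *Cdkn1a* averaged 31.9 ± 11.7 FPKM in KO and 10.4 ± 0.418 FPKM in WT cells, a change of 1.48 ± 0.28 (adjusted p = 0.0497). The *Cdkn1a* call sits at the threshold: it was lost in 8 of the 10 fits that left out 1 library and without both libraries that stand apart. *Phlda3* lost its call only without the first WT Lgr5-high library (adjusted p = 0.0514) among those fits. Members not called lay between -0.049 (*Trp53inp1*) and 0.95 (*Zmat3*), and the median over the 10 was 0.63 against -0.020 over all genes tested.

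In Lgr5-low cells at day 4, 1 member was called higher and 0 lower, against 0.279% of genes called higher and 0.194% called lower. Both KO libraries lay above both WT libraries for 9 members, all but *Bbc3*, against 29% of genes. *Phlda3* averaged 13.1 ± 2.73 FPKM in KO and 0.566 ± 0.168 FPKM in WT cells, with a change of 3.16 ± 0.23 (limma adjusted p = 0.00149) that was called in every fit that left out 1 library. *Ccng1* at 1.28 ± 0.29, *Cdkn1a* at 1.25 ± 0.28, *Zmat3* at 1.19 ± 0.31 and *Eda2r* at 1.103 ± 0.32 had changes of over 1 whose adjusted p stood between 0.109 and 0.187. Every member had a positive value, from 0.13 for *Bbc3* upward, with a median of 1.03 against 0.027 over all genes. Both libraries that stand apart belong to groups other than those compared here. Without them *Cdkn1a* (1.25) and *Zmat3* (1.19) kept these changes and were called beside *Phlda3*.

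Whether the gates responded differently was tested as a difference of differences, the day 4 change of the Lgr5-high gate less that of the Lgr5-low gate. No member differed by limma (0 of 10, lowest adjusted p = 0.963, and 0 at an unadjusted p under 0.05), against 0.0155% of all genes called. The intervals are wide: for *Phlda3* the difference was -0.27 with a 95% interval from -1.01 to 0.47, for *Cdkn1a* 0.23 from -0.67 to 1.12, and for *Trp53inp1* -0.71 from -1.86 to 0.43. The intervals of these 3 members cover 0.

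At day 6, 8 of 10 members rose and 0 fell against the mean of the WT gates, where 10.3% of genes were called higher and 11.5% lower. The 8 include *Eda2r*, which passed the filter only through KO libraries and so was bound to differ. The labels give day 6 no gate, so a change with time and a difference of gate cannot be told apart there. *Phlda3* averaged 36.3 ± 4.65 FPKM at day 6, against 1.46 ± 0.225 in WT Lgr5-high and 0.566 ± 0.168 in WT Lgr5-low cells, a change of 4.24 ± 0.20 (limma adjusted p = 5.11e-05). *Cdkn1a* averaged 92.6 ± 10.04 FPKM, against 10.4 ± 0.418 and 27.1 ± 1.73 in the same WT gates, a change of 2.38 ± 0.24 (adjusted p = 0.000690). *Plk2* (1.79 ± 0.22), *Zmat3* (1.52 ± 0.27), *Eda2r* (1.499 ± 0.28), *Ccng1* (1.45 ± 0.25), *Mdm2* (1.20 ± 0.16) and *Sesn2* (1.09 ± 0.18) followed, with adjusted p between 0.00141 and 0.00727. *Trp53inp1* at 0.56 ± 0.31 (adjusted p = 0.224) and *Bbc3* at 0.35 ± 0.27 (adjusted p = 0.388) did not pass. The median was 1.48 over the members and -0.12 over all genes. The count of 8 was the same against either WT gate alone and in each fit that left out 1 library. With FPKM scaled to equal sums per library it was 5, as *Mdm2*, *Ccng1* and *Sesn2* lost their calls, and without both libraries that stand apart *Trp53inp1* passed too (0.98, adjusted p = 0.0126).

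Between day 4 and day 6, *Phlda3* was the 1 member called, where 0.605% of genes were called higher. Its change over the mean of the day 4 gates was 1.22 ± 0.20 (limma adjusted p = 0.0388), and this call was lost in 9 of 10 fits that left out 1 library, so it rests on the exact set of libraries. *Plk2* at 1.08 ± 0.22 (adjusted p = 0.0676) and *Cdkn1a* at 1.02 ± 0.24 (adjusted p = 0.0955) had values of similar size. Both day 6 libraries lay above all other tissue libraries for 5 members (*Phlda3*, *Cdkn1a*, *Mdm2*, *Plk2* and *Sesn2*), against 6.16% of genes. The comparisons of day 4 and day 6 share the WT libraries, and this one shares libraries with both.

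Cell type markers differed between the groups as well. The labels give day 6 no gate, so time and gate cannot be told apart in the sums of day 6. Stem cell markers (10 genes) summed to between 3344 and 3604 FPKM in WT Lgr5-high cells, to 3160 in the day 3 Lgr5-high library, to between 1684 and 2250 in day 4 Lgr5-high cells and to between 166 and 550 at day 6. In Lgr5-low cells they summed to between 620 and 680 FPKM in WT, to 903 at day 3 and to between 455 and 755 at day 4. Goblet markers (8 genes) summed to between 1854 and 2283 FPKM in WT Lgr5-high cells, to 2790.4 at day 3, to between 6447 and 6737 at day 4 in that gate and to between 8152 and 9827 at day 6, with 5121 to 5674 in WT Lgr5-low cells. Enteroendocrine markers (10 genes) summed to between 98.2 and 226 FPKM in WT Lgr5-high cells, to 256 at day 3, to between 824 and 1736 at day 4 in that gate and to between 905 and 1530 at day 6, with 507 to 781 in WT Lgr5-low cells. Paneth markers (8 genes) summed to between 42082 and 59807 FPKM in WT Lgr5-high cells, to 34688 at day 3, to between 47666 and 93184 at day 4 in that gate and to between 60594 and 160797 at day 6, with 45008 to 54761 in WT Lgr5-low cells. Enterocyte markers (10 genes) summed to between 349 and 414 FPKM in WT Lgr5-high cells, to 375 at day 3, to between 539 and 1089 at day 4 in that gate and to between 3643 and 3998 at day 6, with 2182.4 to 4264 in WT Lgr5-low cells. In KO Lgr5-low cells goblet markers summed to 8985 FPKM at day 3 and to between 7639 and 11937 at day 4. In the same cells enteroendocrine markers summed to 1019 FPKM at day 3 and to between 1420 and 2351 at day 4. Paneth markers there summed to 56675 FPKM and then to between 67816 and 70303, and enterocyte markers to 2517 and then to between 2266 and 6824. Tuft markers (8 genes) summed to at most 98.2 FPKM in KO and 27.4 in WT tissue. At day 6 limma called 7 of 8 goblet, 7 of 9 enteroendocrine, 4 of 10 enterocyte, 2 of 8 Paneth and 0 of 6 tuft markers tested higher and none of them lower, and 7 of 10 stem cell markers lower and 1 higher, beside the 10.3% and 11.5% of all genes. Stromal and endothelial markers (11 genes) summed to at most 25.5 FPKM in KO and 4.67 in WT tissue, with 5 of them (*Pdgfra*, *Acta2*, *Myh11*, *Cdh5* and *Kdr*) under 0.1 FPKM in every tissue group. The 1 gene of this list that passed the filter, the intermediate filament gene *Vim*, had log2 differences of 2.30 and 1.75 at day 4 in Lgr5-high and Lgr5-low cells (limma adjusted p = 0.0959 and 0.227) and 1.24 at day 6 (0.101). The part of cell makeup in the members' changes was not tested.

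In organoids the same genes gave another picture. *Phlda3* stood at 13.6 and 13.6 FPKM in KO organoids, against 14.9 and 13.5 in WT organoids, so the groups overlapped. *Cdkn1a* stood at 57.1 and 56.7 FPKM in KO, against 62.8 and 61.9 in WT organoids. *Mdm2* stood at 8.45 and 8.50 FPKM in KO, against 8.15 and 8.64 in WT organoids, and *Bbc3* at 8.83 and 7.84 FPKM in KO, against 9.26 and 8.34 in WT. None of these 4 passed. The members that did change mostly fell. *Zmat3* had 3.38 and 3.98 FPKM in KO, against 5.74 and 6.36 in WT organoids. *Eda2r* had 1.14 and 1.17 FPKM in KO, against 2.01 and 2.32 in WT, and *Ccng1* had 33.0 and 34.3 FPKM in KO, against 44.1 and 46.0 in WT. *Sesn2* had 10.7 and 11.3 FPKM in KO, against 13.6 and 14.9 in WT, and *Trp53inp1* had 2.48 and 2.72 FPKM in KO, against 3.53 and 3.52 in WT. For these 5 members, and for *Cdkn1a*, both KO libraries lay below both WT libraries, as they did for 31.3% of genes. *Plk2* went the other way, with 10.2 and 9.87 FPKM in KO, against 6.10 and 6.90 in WT organoids, a separation in that direction seen for 36.6% of genes.

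By limma over the 12657 genes tested in the 8 organoid libraries, 5 members were called lower in KO organoids, where 11.5% of genes were called lower, and 1 was called higher, where 16.7% were. The changes were -0.59 ± 0.09 for *Zmat3* (adjusted p = 0.00536), -0.55 ± 0.10 for *Eda2r* (0.00774), -0.41 ± 0.09 for *Ccng1* (0.0149), -0.35 ± 0.08 for *Sesn2* (0.0220), -0.33 ± 0.08 for *Trp53inp1* (0.0248) and 0.56 ± 0.08 for *Plk2* (0.00336). *Phlda3* had a difference of -0.056 with a 95% interval from -0.22 to 0.11, *Cdkn1a* -0.13 from -0.40 to 0.14, and *Mdm2* 0.012 from -0.15 to 0.18. The median over the members was -0.23 against 0.014 over all genes. The total of 6 calls became 2 without the second WT library and 3 without either KO library, with *Plk2* and *Zmat3* called in every such fit. KO and WT organoids also differ in 4-OHT against ethanol, which cannot be told apart from the deletion. Stem cell markers summed to between 447 and 468 FPKM in KO, against 737 to 833 in WT organoids, and goblet markers to between 3047 and 3287 FPKM in KO, against 1519 to 2035 in WT. Enteroendocrine markers summed to between 1022 and 1069 FPKM in KO, against 437 to 560 in WT, Paneth markers to between 8854 and 10478 in KO, against 6296 to 8463 in WT, and enterocyte markers to between 1576 and 1623 in KO, against 2950 to 3073 in WT. *Vim* rose by 0.77 (limma adjusted p = 0.00197). The part of cell makeup in these changes was not tested.

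The added factors were compared with KO organoids next. With AKF 0 of 10 members were called by limma, where 0.0474% of all genes were, and 1 member had an unadjusted p under 0.05, *Plk2* at 0.33 ± 0.08 (adjusted p = 0.732), with 12.8 and 12.95 FPKM in KO with AKF, against 10.2 and 9.87 in KO. With AKFP 4 members were called higher and 1 lower, and 13.2% of genes were called in each direction. *Eda2r* had 2.80 and 2.92 FPKM with AKFP, against 1.14 and 1.17 in KO organoids (0.84 ± 0.10, adjusted p = 0.00250). *Zmat3* had 6.86 and 6.39 FPKM with AKFP, against 3.38 and 3.98 in KO (0.71 ± 0.09, adjusted p = 0.00431), and *Ccng1* had 45.4 and 52.8, against 33.0 and 34.3 (0.53 ± 0.09, adjusted p = 0.00826). *Trp53inp1* had 3.32 and 3.37 FPKM with AKFP, against 2.48 and 2.72 in KO (0.27 ± 0.08, adjusted p = 0.0484), a call lost in every fit that left out 1 library. *Bbc3* fell to 5.12 and 3.89 FPKM with AKFP, against 8.83 and 7.84 in KO (-0.77 ± 0.12, adjusted p = 0.00755). The 4 members called higher with AKFP are among the 5 called lower in KO organoids, but both comparisons share the KO libraries, so these are not independent. Set beside WT organoids, both AKFP libraries lay above both WT libraries for 4 members (*Mdm2*, *Eda2r*, *Plk2* and *Zmat3*; 41.8% of genes) and below them for 4 (*Cdkn1a*, *Sesn2*, *Trp53inp1* and *Bbc3*; 32.5% of genes). Without the first KO library 2 members were called with AKFP, *Eda2r* and *Zmat3*.

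**Figure D2:**
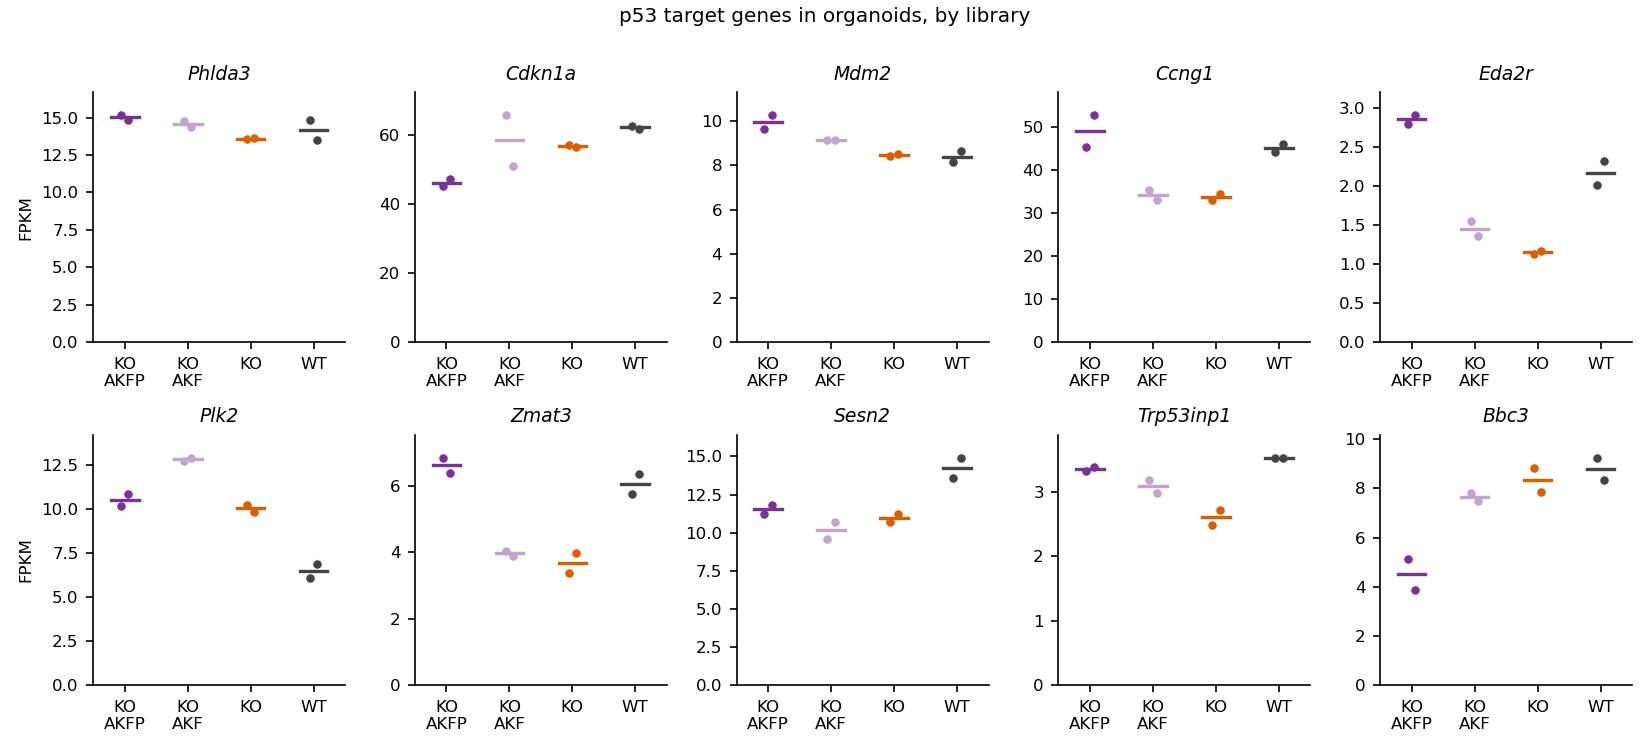
FPKM of each member in the 8 organoid libraries, with KO with AKFP, KO with AKF, KO and WT from left to right; points are libraries and bars group means. *Zmat3*, *Eda2r* and *Ccng1* are lower in KO than in WT and higher with AKFP, while *Phlda3* lies between 13.5 and 15.2 FPKM in all 8 libraries.

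The cultures began from other levels than the crypts. For 9 members, all but *Trp53inp1*, both WT organoid libraries lay above all 4 WT tissue libraries, against 27.9% of genes. The ratio of WT organoid to WT Lgr5-high means was 9.70 for *Phlda3*, 6.27 for *Zmat3*, 5.99 for *Cdkn1a* and 4.66 for *Eda2r*, down to 1.37 for *Bbc3* and 0.844 for *Trp53inp1*. Tissue and organoids were deposited in separate tables, FPKM was normalised per library, and the organoid table does not name its unit, so these ratios carry no test.

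**Figure D3:**
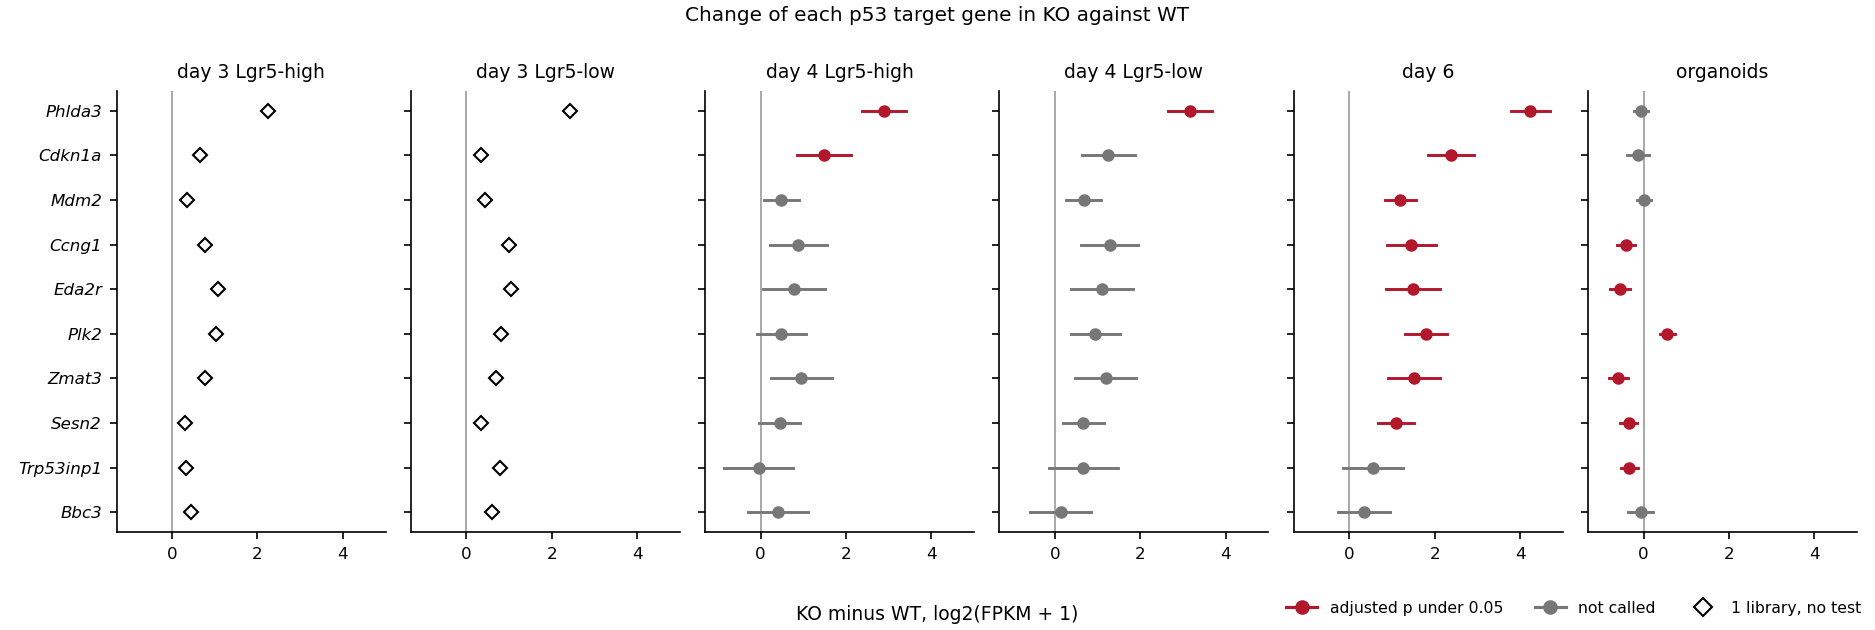
KO minus WT on the log2(FPKM + 1) scale for each member, with the 2 day 3 gates, the 2 day 4 gates, day 6 and the organoids as panels. Points carry 95% intervals from limma, red where the adjusted p is under 0.05, and open diamonds are single libraries without a test; *Phlda3* lies between 2.24 and 4.24 in tissue and at -0.056 in organoids.

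The contrast between crypt and culture was tested directly as the mean day 4 change over the gates minus the KO change in organoids, in 1 limma fit of 18 libraries and 13527 genes. In all, 6 members differed, each with the larger value in tissue, where 0.658% of genes were called in that direction. The differences were 3.08 ± 0.21 for *Phlda3* (adjusted p = 1.94e-05), 1.66 ± 0.30 for *Zmat3* (0.0181), 1.496 ± 0.28 for *Cdkn1a* (0.0199), 1.49 ± 0.29 for *Ccng1* (0.0227), 1.49 ± 0.31 for *Eda2r* (0.0341) and 0.91 ± 0.19 for *Sesn2* (0.0341). *Mdm2* at 0.57 ± 0.15 (adjusted p = 0.0942), *Trp53inp1* at 0.64 ± 0.35 (0.555), *Bbc3* at 0.34 ± 0.31 (0.818) and *Plk2* at 0.15 ± 0.23 (0.920) did not pass, and for *Plk2* the 95% interval ran from -0.36 to 0.66. The median was 1.20 over the members and -0.027 over all genes.

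This count leans on the small organoid groups. With any 1 of the 4 KO and WT organoid libraries left out it was 1, which was *Phlda3*. With FPKM scaled to equal sums it was also 1, and with the Lgr5-high gate alone it was 2. All groups of the fit share 1 estimate of spread, although organoid libraries varied less than tissue libraries. With a weight of its own for each set the count was 7. Crypts and cultures differ also in days, in tamoxifen against 4-OHT and in the WT treatment, which cannot be told apart from tissue against culture.

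**Figure D4:**
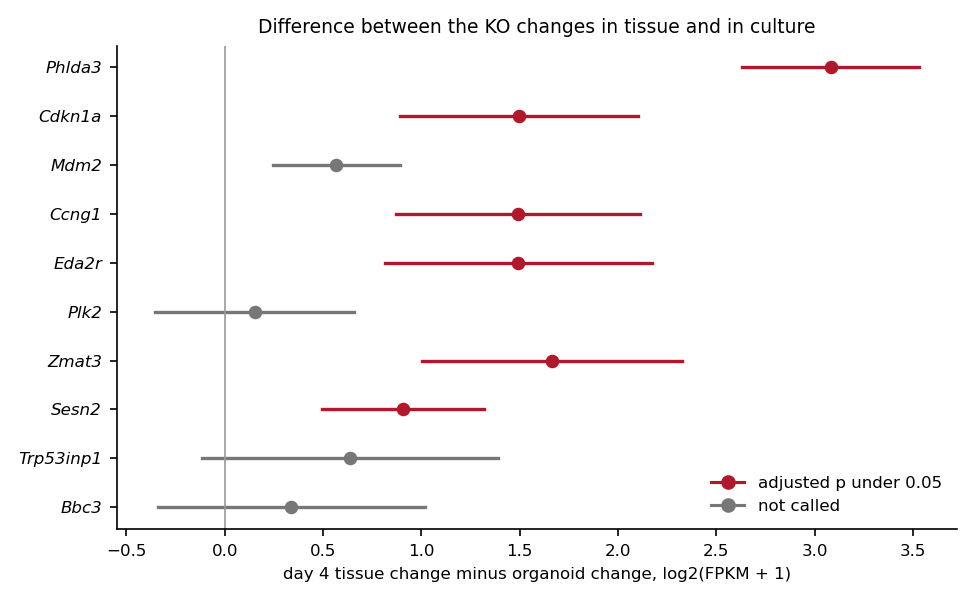
Day 4 tissue change minus organoid change of each member on the log2(FPKM + 1) scale, with 95% intervals from limma and red for an adjusted p under 0.05. Every point lies above 0, from 0.15 for *Plk2* to 3.08 for *Phlda3*.

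Among 17 genes of p53 and its regulators, 14 were tested and none rose in any comparison of KO with WT. *Trp53*, the gene of p53, stood at 14.3 and 16.2 FPKM at day 6, against 42.5 and 41.5 in WT Lgr5-high and 29.7 and 24.0 in WT Lgr5-low cells, a fall of -1.09 ± 0.23 (limma adjusted p = 0.0134). *Chek2*, a DNA damage kinase (-0.86, adjusted p = 0.0411), and *Usp7*, a deubiquitinase of MDM2 and p53 (-0.64, adjusted p = 0.0496), fell at day 6 too, so 3 of 14 fell where 11.5% of genes did, and the median over the 14 was -0.52. In organoids *Trp53* had 22.8 and 20.8 FPKM in KO, against 25.3 and 26.5 in WT (-0.24 ± 0.07, adjusted p = 0.0414). At day 4 no regulator passed in either gate, with *Trp53* at -0.48 (adjusted p = 0.402) and -0.64 (0.347) in Lgr5-high and Lgr5-low cells. At day 6 the transcript of p53 thus stood lower while 8 members stood higher.

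Of a list of 41 other p53 targets, 36 were tested in tissue. Their median log2 change was 0.21 and 0.34 at day 4 in Lgr5-high and Lgr5-low cells and 0.65 at day 6, beside -0.020, 0.027 and -0.12 over all genes. In Lgr5-high cells at day 4, 2 rose and 0 fell (0.729% and 0.326% of all genes): *Sulf2*, an extracellular sulfatase, with 5.001 and 9.99 FPKM in KO, against 0.968 and 0.653 in WT (2.17, limma adjusted p = 0.0325), and *Tap1*, an antigen peptide transporter (1.47, adjusted p = 0.0325). In Lgr5-low cells 1 rose, the epoxide hydrolase *Ephx1* (1.43, adjusted p = 0.0316), and 1 fell, the polo-like kinase *Plk3* (-1.48, adjusted p = 0.0448), where 0.279% and 0.194% of genes did. At day 6, 16 of 36 rose where 10.3% of genes did, among them *Sulf2* (3.38), the phosphatase *Ptp4a3* (1.90) and *Ephx1* (1.63), and 4 fell, which is near the 11.5% of all genes. In KO organoids 8 of 35 rose and 2 fell, not far from the 16.7% and 11.5% of all genes, with a median of 0.16, among them the receptor *Epha2* (0.9982), *Ptp4a3* (0.83) and *Ephx1* (-1.27). *Ephx1* had 54.3 and 48.3 FPKM in KO organoids, against 127 and 123 in WT. The difference between the day 4 change and the organoid change was called for 4 of 37 of these targets in the tissue direction and for 3 in the other, where 0.658% and 0.976% of genes were. *Ephx1* had the smallest p among them, with a difference of 2.35 ± 0.19 (adjusted p = 4.94e-05).

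Near relatives of the members and the wider death and division genes give the setting. Of 14 tested paralogues, 2 rose and 3 fell at day 6, beside 10.3% and 11.5% of all genes. *Phlda1* (1.65, limma adjusted p = 0.00142) and *Phlda2* (1.92, adjusted p = 0.00297), relatives of *Phlda3*, rose, and the kinase inhibitor *Cdkn1b* fell (-1.03, adjusted p = 0.00666). In KO organoids 6 of 14 tested paralogues rose and 1 fell, beside 16.7% and 11.5% of all genes. Among those that rose were *Phlda1* (0.50, limma adjusted p = 0.00207) and *Phlda2* (0.68, adjusted p = 0.00199). Of 17 tested BCL-2 family and caspase genes, 0 passed in either gate at day 4, where under 1% of genes were called in each direction, and 2 rose at day 6, about the 10.3% of all genes. *Bax*, the death effector that p53 is known to raise, stood at 113 and 84.2 FPKM at day 6, against 30.3 and 27.6 in WT Lgr5-high and 29.5 and 25.0 in WT Lgr5-low cells (1.77, adjusted p = 0.00282). *Pmaip1*, which encodes the BH3-only protein NOXA, did not pass at day 4: it had 6.00 and 6.71 FPKM in day 4 Lgr5-high cells, against 10.6 and 12.9 in WT Lgr5-high cells (-0.79, adjusted p = 0.0843). Of 25 cell cycle genes, 0 passed at day 4 in either gate, and at day 6 2 rose and 5 fell, beside 10.3% and 11.5% of all genes, among them *Cdc25c* (-1.05, adjusted p = 0.00478) and *Ccnb2* (-0.91, adjusted p = 0.0126). The median of these 25 was -0.50 at day 6. In KO organoids 2 of them rose and 8 fell, beside 16.7% and 11.5% of all genes, with a median of -0.24.

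Over the 12 tissue libraries, and among 8123 genes compared, the genes whose values followed *Phlda3* most closely were *Gusb* (Pearson r = 0.982), *Bysl* (0.975), *Psat1* (0.974), *Hars* (0.972) and *Eif2s2* (0.969). For *Cdkn1a* they were *Elovl1* (0.980), *Kdelr3* (0.979), *Chst4* (0.979), *Themis3* (0.979) and *Mfsd2a* (0.979). Members were left out before this ranking, so it does not say how closely they followed each other. The points share groups and libraries, so the correlations describe the order of the groups. In culture *Gusb* averaged 19.7 FPKM in KO and 11.3 in WT organoids, and *Bysl* averaged 15.7 FPKM in KO and 8.10 in WT, beside 13.6 in KO and 14.2 in WT for *Phlda3*.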

How the data were processed

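RNA was sequenced from 12 libraries of sorted crypt cells and 8 of organoids. The mm10 build, StringTie 1.3.3b and HISAT2 2.1.0 are named in the submitters' processing notes. The role of each, annotation, filters and strand are not given in the sources used here. The tissue values were deposited by the authors as FPKM, 1 table per library. The deposited organoid table names no unit and was taken as FPKM from its rows, format and range. For day 6 library 1 the column header says low, which its labels do not, and groups follow the labels. Of 54838 identifiers, 54809 had a symbol.

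Values were analysed as log2(FPKM + 1), a scale that understates changes of low genes, for genes with at least 1 FPKM in 2 libraries of a fit. limma 3.58.1 in R 4.3.3 (lmFit, contrasts.fit, eBayes with a trend) was fitted to 10 tissue, 8 organoid or 18 joined libraries, for 9 comparisons. All tests were two-sided. The Benjamini-Hochberg method adjusted p-values over all genes tested within each comparison, with calls at an adjusted p under 0.05. The fit was tested on simulated data. Named beside the members were the 3 genes of smallest p in other lists and the 5 genes most like *Phlda3* and *Cdkn1a*; a few more were chosen after their values were seen. The members and lists were chosen with earlier results of these data known. No 2 libraries were identical. Promoter sequences are from RefSeq. Alternatives covered scaling, pseudocount, filter, replicate block, the libraries in the fit and each library left out.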

Additional observations from a re-analysis of the deposited data

Results flagged for a closer look

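In all, 6 members changed differently in crypts at day 4 and in organoids, each with the larger value in tissue. Of all genes, 0.658% were called in that direction and 0.976% in the other. The test was of the difference itself, in a limma fit of all 18 libraries (two-sided, adjusted over 13527 genes). The count leans on the KO and WT organoid libraries, as described above. The log2 differences, tissue change minus organoid change, were 3.08 for *Phlda3*, 1.496 for *Cdkn1a*, 1.49 for *Ccng1*, 1.49 for *Eda2r*, 1.66 for *Zmat3* and 0.91 for *Sesn2*. *Phlda3*, *Cdkn1a* and *Sesn2* were higher in all 4 day 4 KO libraries than in the WT libraries of their gate, as were *Ccng1*, *Eda2r* and *Zmat3*. In organoids *Ccng1*, *Eda2r*, *Zmat3* and *Sesn2* were lower in both KO libraries than in both WT libraries. *Phlda3* (-0.056) and *Cdkn1a* (-0.13) did not pass there. Days, agent and WT treatment also differ between crypts and cultures and cannot be told apart from that contrast. Over the alternatives other than leaving out 1 library, the adjusted p of *Phlda3* ran from 9.09e-07 to 0.000644 and that of *Sesn2* from 0.00111 to 0.393.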

How the results depend on the processing

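The count of members called at day 4 in Lgr5-high cells (2) was 1 with no filter, with FPKM scaled to equal sums, with median-of-ratios scaling and without both libraries that stand apart, and 0 when other groups were left out of the fit. At day 4 in Lgr5-low cells (1) it was 2 with the replicate block, 3 with the transcript length trend taken out and 3 without both libraries that stand apart, and 0 when other groups were left out. At day 6 (8) it was 5 with equal sums. For day 6 against day 4 (1) it was 0 with a pseudocount of 0.1, no filter, equal sums, only the compared groups, no library that stands apart or the Lgr5-low gate as reference, 3 with median-of-ratios scaling and 4 with the length trend taken out. For tissue against organoids (6) it was 1 with equal sums, 2 with Lgr5-high alone and 3 with Lgr5-low alone. A count could also stay the same while its members changed. With the length trend taken out at day 4 in Lgr5-high cells, *Cdkn1a* lost its call (limma adjusted p = 0.0552) and *Zmat3* gained one (0.00894). For day 6 against the day 4 Lgr5-high gate alone, *Phlda3* lost its call (limma adjusted p = 0.0506) and *Cdkn1a* gained one (0.0289). The count of all genes called moved too. At day 4 in Lgr5-high cells it was 136, and 29 with no filter and 0 with only the compared groups. In Lgr5-low cells it was 61, and 109 with the block, 236 with the length trend taken out and 1 with only the compared groups. At day 6 it was 2821, and 1738 with equal sums. For day 6 against day 4 it was 96, and 45 with equal sums and 180 with median-of-ratios scaling. For tissue against organoids it was 221, and 103 with equal sums. The cause was not tested. Leaving out each library in turn gave 0 to 2 calls at day 4 in Lgr5-high cells, 1 to 2 in Lgr5-low cells, 0 for the gates, 8 at day 6, 0 to 3 for day 6 against day 4, 2 to 6 for KO organoids, 0 with AKF, 2 to 5 with AKFP and 1 to 7 for tissue against organoids; a group left with 1 library is assumed to vary like the others. Apart from the change at day 4 in Lgr5-low cells, where *Ccng1* passed (adjusted p = 0.0344), the replicate block changed the count with AKFP to 4. Nothing in the labels says that libraries of the same number share an animal or day. The deviations of same-numbered libraries from their group means correlated at 0.0235 to 0.520 in tissue, over 0.1 for 7 of 10 pairs of groups, and at -0.0392 to 0.0911 in organoids, over 0.1 for 0 of 6, so whether the tissue numbers mark a pairing is not settled. The length trend, both libraries that stand apart and the separate weights were chosen after seeing the data. With equal sums the median of all genes moved to -0.37 at day 6 from -0.12, and to -0.31 from -0.13 for day 6 against day 4.

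No called member changed sign. Reversals were of values that had not passed: *Trp53inp1* at day 4 in Lgr5-high cells was 0.15 with the length trend taken out and 0.45 without both libraries that stand apart; for the gates *Zmat3* was 0.17 and 0.11 under these and *Bbc3* was -0.080 without both libraries that stand apart; *Bbc3* for day 6 against day 4 was -0.14 with equal sums and -0.28 against Lgr5-high alone; *Mdm2* in KO organoids was -0.082 with equal sums, -0.020 with median-of-ratios scaling and -0.028 with the length trend taken out; and *Plk2* for tissue against organoids was -0.083 with Lgr5-high alone. Leaving out 1 library reversed 19 of 920 member values. Their ranges ran from -0.54 to 0.45 for *Trp53inp1* and from -0.26 to 0.52 for *Bbc3* at day 4, in Lgr5-high and Lgr5-low cells in turn. For the gates they ran from -0.15 to 0.60 for *Cdkn1a*, -0.58 to 0.11 for *Zmat3* and -0.12 to 0.67 for *Bbc3*. For day 6 against day 4 they ran from -0.17 to 0.67 for *Trp53inp1* and -0.12 to 0.27 for *Bbc3*. In KO organoids they ran from -0.12 to 0.0064 for *Phlda3*, -0.026 to 0.050 for *Mdm2* and -0.15 to 0.0068 for *Bbc3*. With AKF they ran from -0.15 to 0.21 for *Cdkn1a*, -0.027 to 0.067 for *Ccng1* and -0.0049 to 0.18 for *Zmat3*, and for tissue against organoids from -0.011 to 0.31 for *Plk2*. About 10 fragments stand behind *Phlda3* and 11 behind *Eda2r* in the second WT Lgr5-low library.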
